A study of Mus musculus with 14 samples.

Results

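The genes described here are 10 core components of Notch signalling measured in cultured adult mouse neural stem and progenitor cells (NSPCs): the receptors Notch1, Notch2 and Notch3, the ligands Dll1, Dll3 and Jag1, the glycosyltransferases Lfng and Mfng, and the nuclear proteins Rbpj and Maml1. They were taken by gene symbol from the annotation deposited with the data and joined by gene identifier to the 2 count tables, in which they are 10 of 53700 annotated genes. Poly-A RNA was sequenced with a stranded kit in 14 libraries, all from C57BL/6 cells. In the first table, 4 libraries came from cells treated with BMP4, called quiescent here after the naming of the samples, and 4 from cells in FGF and EGF, called proliferating. The labels name only BMP4 for the quiescent cells and do not say whether a growth factor was present too. In the second table, all 6 libraries came from cells in FGF and EGF: 3 had been given an adeno-associated virus carrying GFP (GFP control) and 3 one carrying Cre-GFP (Yme1l KO). The labels call the mouse of origin wild-type in every group, name no floxed allele, and give no age beyond adult. Because no label says whether replicates came from separate animals or cultures, the p-values cover only the sample-to-sample spread seen here, part or all of which may be technical.

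Notch receptors are cleaved when a ligand on a neighbouring cell binds them, and the freed intracellular domain enters the nucleus, where it joins the DNA-binding protein RBPJ and a Mastermind coactivator to switch on genes of the Hes and Hey families. In the adult brain the pathway is known for keeping neural stem cells undifferentiated and, in part, out of the cell cycle, while cells on their way to becoming neurons display more ligand. Fringe enzymes add a sugar to the receptor in the Golgi and so change which ligands it answers to.

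Library totals were 6475099 to 8797750 counts in the quiescent, 8331999 to 8992709 in the proliferating, 9226080 to 10320736 in the GFP control and 9053124 to 9490756 in the Yme1l KO group. Yme1l1, the gene to be deleted, lay at 121 to 135 CPM (counts scaled with TMM-adjusted library sizes) in the GFP controls and at 22.9 to 25.7 CPM in the Yme1l KO libraries, a 5.13-fold lower level. Of 9 markers of neural stem and progenitor cells, 8 had a mean of at least 1 CPM in every group, and the exception was Prom1. By the test described below, 2 of 8 tested were called higher and 5 lower in quiescence (65.4% of all genes called). In the Yme1l KO 1 was called higher and 3 lower (51.6% of all genes called). A pair of libraries stood apart from their replicates. In pairwise comparisons of counts, chi-square per degree of freedom was 7.42 to 9.99 for quiescent replicate 2 against 2.14 to 3.86 among the other quiescent libraries. It was 7.08 to 7.65 for Yme1l KO replicate 3 against 1.96 between the other Yme1l KO libraries. Results that change without either library are given below. The 2 tables were quantified separately and their levels differ with base composition. Across 11464 genes, the log2 ratio of GFP control to proliferating cells had a Pearson correlation of -0.70 with the GC content of the transcripts, given as a description over genes that share these libraries. Levels were therefore tested only within a table, and values of both tables are set side by side without a comparison.

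In quiescent against proliferating cells, 9 of the 10 genes passed the test (edgeR quasi-likelihood, Benjamini-Hochberg adjusted p under 0.05 over all genes tested), with Notch1, Notch3 and Jag1 higher and Notch2, Dll1, Dll3, Lfng, Mfng and Maml1 lower. Of all 12245 genes tested, 65.4% passed, 29.9% higher and 35.5% lower, so that calls are also the rule for genes in general. Calls of at least 2-fold, which 20.7% of all genes reached, were found for Dll1, Dll3, Jag1 and Mfng. Mfng met the filter on low counts only through the proliferating libraries, where it was high. The split of all calls, 3664 higher and 4346 lower, was 2823 and 5219 with library size alone as the scaling. The median log2 fold change of the 10 genes was -0.46, against -0.01 for all genes. In Yme1l KO against GFP control cells, 9 genes were tested and 3 passed: Notch3 and Jag1 were higher and Dll1 was lower. There 51.6% of all 12625 genes tested passed, 25.4% higher and 26.2% lower, and the median was -0.08 for the 9 genes and 0.00 for all genes. In bulk RNA, fewer cells that express a gene and less of its RNA per cell cannot be told apart.

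**Figure D1:**
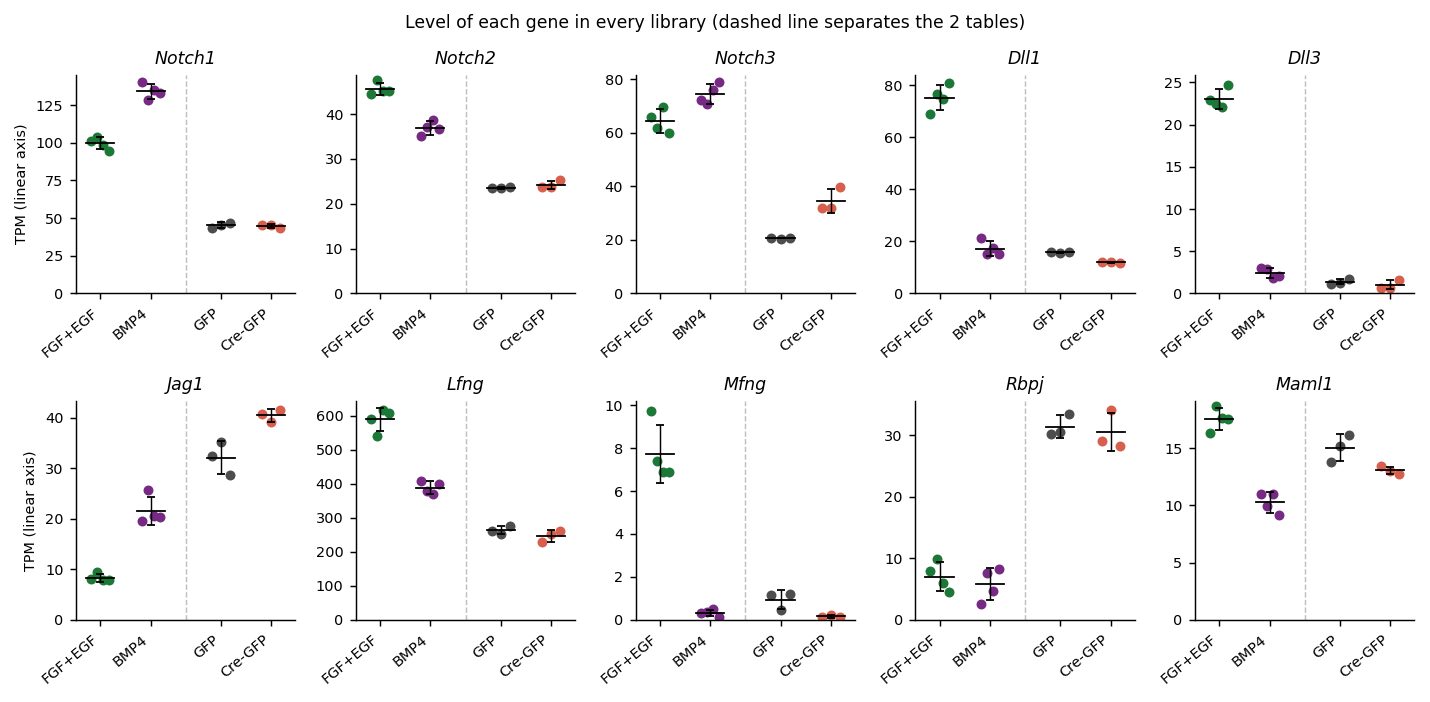
TPM (length-normalised abundance, linear axis from 0) of each of the 10 genes in every library, by group: cells in FGF and EGF (n = 4), cells with BMP4 (n = 4), and, right of the dashed line in the separately quantified table, GFP virus (n = 3) and Cre-GFP virus (n = 3). Points are libraries and black bars the mean ± SD. Dll1 lay at 69.0 to 80.7 TPM in the FGF and EGF libraries and at 15.0 to 21.4 TPM with BMP4, while Jag1 lay at 7.82 to 9.44 and at 19.6 to 25.8 TPM.

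In quiescence Notch1 and Notch3 rose and Notch2 fell. Notch1 (ENSMUSG00000026923, GRCm39 chromosome 2, 26347915 to 26406675, minus strand), the most studied receptor of adult neural stem cells, was at 777, 685, 745 and 732 CPM in the 4 quiescent libraries and at 558, 575, 545 and 531 CPM in the 4 proliferating ones. Every quiescent library lay above every proliferating one, and the rise was 1.33-fold (log2 fold change 0.41, SE 0.05, adjusted p = 7.57e-07). In the virus-treated cells Notch1 measured 231, 239.8 and 249 CPM with GFP and 231, 238 and 231 CPM with Cre-GFP. These groups overlapped, and the log2 difference of -0.04 (SE 0.05) did not pass the test (adjusted p = 0.504).

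Notch2 (ENSMUSG00000027878, chromosome 3, 97920843 to 98057677, plus strand), the receptor linked with stem cell quiescence in the adult brain, went the other way. It was at 224, 221, 238 and 228 CPM in quiescent and at 272, 296, 283 and 282 CPM in proliferating cells, with no overlap, and fell by 0.31 on the log2 scale (SE 0.04, adjusted p = 1.05e-05). With GFP it was at 138, 138 and 139.6 CPM and with Cre-GFP at 139.3, 139.7 and 149 CPM. The lowest Yme1l KO library lay within the control range, and the difference of 0.04 (SE 0.05) did not pass (adjusted p = 0.480).

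Notch3 (ENSMUSG00000038146, chromosome 17, 32339794 to 32385826, minus strand), a receptor best known from the mural cells of blood vessels that is also made by neural stem cells, was the only receptor that passed in both comparisons. It measured 351, 315, 354 and 373 CPM in quiescent and 307, 287, 318 and 283 CPM in proliferating cells. The ranges overlapped through quiescent replicate 2 and proliferating replicate 4, and the rise was 0.22 (SE 0.05, adjusted p = 0.00240). It was 0.35 without quiescent replicate 2, and with library size alone it was 0.08 and did not pass (adjusted p = 0.178). In the virus-treated cells the groups were clear of each other: 93.9, 91.5 and 92.7 CPM with GFP against 142, 143 and 178 CPM with Cre-GFP. The rise was 1.66-fold (log2 fold change 0.73, SE 0.08, adjusted p = 1.33e-05). The highest value, 178 CPM, belonged to Yme1l KO replicate 3, and the log2 fold change without that library was 0.62 (adjusted p = 9.87e-19). That p-value is far smaller although the fit held fewer libraries and the effect was smaller. It is therefore not stronger evidence.

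Of 7 mural markers, Pdgfrb had no count in any library. Their summed level was 10.3 to 15.8 CPM in quiescent, 8.95 to 12.1 in proliferating, 1.12 to 2.30 in GFP control and 0.430 to 0.566 CPM in Yme1l KO cells. In the first table most of the sum was Tagln and Acta2, which went opposite ways. Tagln was at 8.79 to 12.3 CPM in quiescent and 3.10 to 4.20 CPM in proliferating cells, and Acta2 at 1.46 to 3.07 and 5.62 to 7.84 CPM. The part of such cells in the Notch3 values was not tested.

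Among the 3 receptors, levels compared per length in TPM, the deposited abundance measure, kept Notch1 first in all 14 libraries. Notch3 held 29.2% to 31.8% of the summed receptor TPM in quiescent and 29.0% to 32.7% in proliferating cells, which overlap. It held 22.7% to 23.8% in GFP control and 31.6% to 36.6% in Yme1l KO cells, which do not. Notch2 was above Notch3 in all 3 GFP control libraries and below it in the other 11 libraries. The receptor sum was 236 to 250 TPM in quiescent and 199.6 to 214 TPM in proliferating cells, and 87.6 to 91.5 and 101 to 109 TPM in the GFP control and Yme1l KO groups. Each receptor was carried almost wholly by 1 coding transcript, with Notch1-201, Notch2-201 and Notch3-201 at 98.0% to 100% of the group's gene TPM.

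The ligand genes had larger fold changes than the receptor genes in quiescence. Dll1 (ENSMUSG00000014773, chromosome 17, 15587616 to 15597134, minus strand), the Delta ligand that neural progenitors present to their neighbours, was at 33.6, 28.5, 31.6 and 28.5 CPM in quiescent cells. In proliferating cells it was at 119.7, 127, 119 and 126 CPM. The groups were far apart, and Dll1 was 4.03-fold lower in quiescent cells (log2 fold change -2.01, SE 0.07, adjusted p = 3.22e-13).

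It was also lower after Cre-GFP, at 19.3, 18.9 and 19.3 CPM against 25.2, 25.4 and 28.5 CPM with GFP. All 3 Yme1l KO libraries lay below the controls, with a log2 difference of -0.46 (SE 0.09, adjusted p = 0.000728). The coding transcript Dll1-201 held 75.6% to 84.5% of the gene's TPM in the 4 groups, and the annotated retained-intron transcript Dll1-204 held 13.8% to 15.3%.

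Dll3 (ENSMUSG00000003436, chromosome 7, 27992978 to 28001663, minus strand) encodes a divergent Delta protein that stays mostly inside the cell and does not activate receptors on neighbours. It was at 4.53, 4.09, 2.60 and 3.07 CPM in quiescent and at 32.4, 32.6, 32.7 and 33.9 CPM in proliferating cells. No library overlapped, and Dll3 was 9.12-fold lower in quiescence (log2 fold change -3.19, SE 0.14, adjusted p = 1.08e-11). In the second table it was close to the lower end of detection, at 16, 16 and 25 counts with GFP and 9, 9 and 20 counts with Cre-GFP. The log2 difference of -0.47 (SE 0.37) did not pass (adjusted p = 0.305). Yme1l KO replicate 3 held 20 of the 38 Yme1l KO counts, and without it the value was -0.99 and passed (adjusted p = 0.0449). This is the fit with the smaller Notch3 p-value from fewer libraries, so the call adds no separate support. Since Delta genes are typical of cells on their way to neurons, 6 markers of neuroblasts and neurons were read beside them. Their summed level was 52.4 to 106 CPM in quiescent and 50.1 to 75.4 CPM in proliferating cells, with Neurod1 and Stmn2 at 0, and 1 of 2 tested fell. It was 1166 to 1260.4 CPM with GFP and 1212 to 1268 CPM with Cre-GFP, with Stmn2 at 0. Most of each sum was Map2, at 43.6 to 99.7 CPM in quiescent and 35.9 to 62.0 CPM in proliferating cells. Map2 was at 1150 to 1245 CPM with GFP and 1193 to 1252 CPM with Cre-GFP. In these virus-treated cells Dcx stayed at or below 1.58 CPM and Tubb3 at or below 17.1 CPM. The part of neuroblasts and neurons in the Dll1 and Dll3 values was not tested.

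Jag1 (ENSMUSG00000027276, chromosome 2, 136923376 to 136958564, minus strand), the Jagged ligand supplied to stem cells by niche cells and by stem cells themselves, moved opposite to both Delta genes. It was at 63.7, 80.9, 66.1 and 66.6 CPM in quiescent and at 25.7, 27.0, 25.8 and 24.8 CPM in proliferating cells. The quiescent libraries were all above the proliferating ones, with replicate 2 the highest, and the rise was 2.69-fold (log2 fold change 1.43, SE 0.08, adjusted p = 3.22e-10). The rise was 1.42 on the log2 scale without that replicate.

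With GFP, Jag1 was at 93.4, 96.9 and 84.3 CPM, and with Cre-GFP at 115, 109 and 118 CPM. Again the groups did not overlap, and the rise was smaller, 1.25-fold (log2 fold change 0.32, SE 0.06, adjusted p = 0.000611). Jag1 is also made by vessel cells. The summed level of 6 endothelial markers was 10.9 to 14.8 CPM in quiescent and 2.85 to 4.02 CPM in proliferating cells, mostly Kdr at 9.44 to 13.0 and 1.79 to 3.21 CPM, while Cldn5 had no count in any library and Cdh5 stayed at or below 0.226 CPM. In the virus-treated cells the sum was 0.713 to 1.34 CPM with GFP and 0.453 to 0.743 CPM with Cre-GFP. The part of such cells in the Jag1 values was not tested.

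The make-up of the ligand RNA was compared within each library. The ratio of Jag1 to Dll1 TPM was 0.917 to 1.71 in the 4 quiescent libraries (mean 1.29 ± 0.335, SD) and 0.0969 to 0.123 in the 4 proliferating ones (mean 0.110 ± 0.0117, SD). It was 1.82 to 2.29 in the 3 GFP control libraries (mean 2.04 ± 0.239, SD) and 3.29 to 3.49 in the 3 Yme1l KO libraries (mean 3.37 ± 0.104, SD). Neither pair of groups overlapped. Jag1 took 44.6% to 59.0% of the summed TPM of the 3 ligands in quiescent and 6.90% to 8.71% in proliferating cells. In the second table it took 62.1% to 68.0% in control and 75.4% to 75.9% in Yme1l KO cells. The summed TPM of these 3 ligands, without Dner and others given below, was lower in quiescence, 37.5 to 44.1 against 99.8 to 113 TPM. It was 46.2 to 51.9 TPM with GFP and 51.7 to 54.9 TPM with Cre-GFP, which touch.

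**Figure D2:**
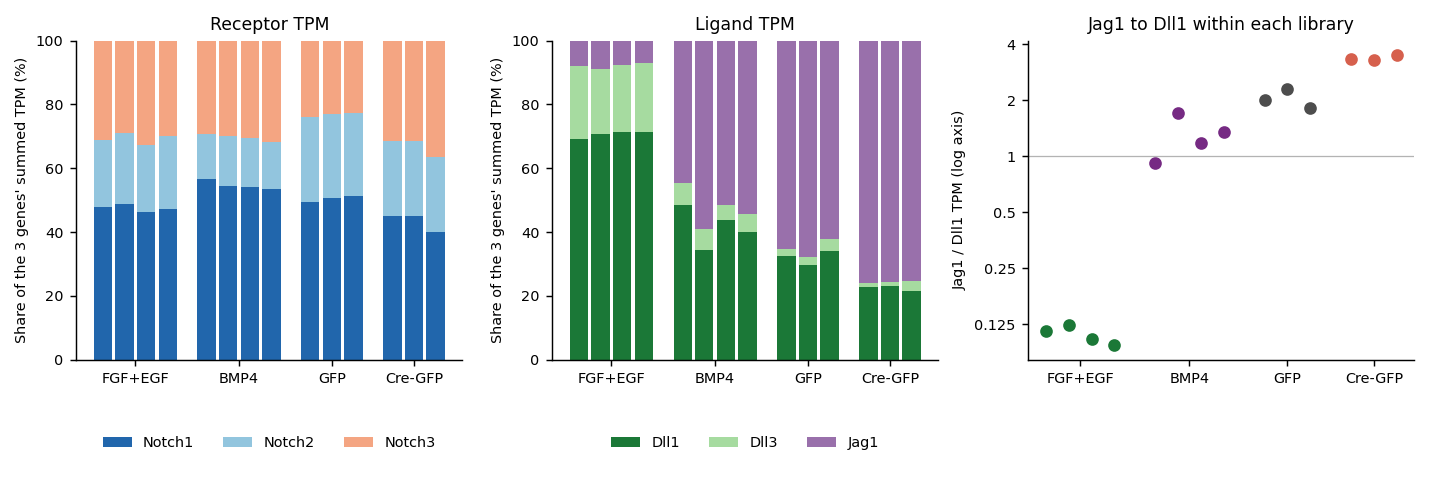
Left and middle, share (%) of the summed TPM of the 3 receptors and of the 3 ligands held by each gene, 1 bar per library; right, ratio of Jag1 to Dll1 TPM in each library on a log axis. Jag1 filled 6.90% to 8.71% of the ligand bars in the FGF and EGF libraries and 44.6% to 59.0% with BMP4, and Notch3 filled 22.7% to 23.8% of the receptor bars with GFP and 31.6% to 36.6% with Cre-GFP.

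The start regions of the ligands and of Lfng are shown because they are the members that hold a shared motif. RefSeq promoter windows (GRCm38.p6, an earlier build than that of the gene coordinates above) were found for 9 of the 10 genes, 11 windows in all, with no entry for Mfng. The 250 bases before each start were searched on both strands for CAGCTG, an E-box form bound by proneural factors, which reads the same on both strands, and for GTGGGAA, a core bound by RBPJ. Neither motif overlaps the other. CAGCTG was found in 4 of the 11 windows, and in 13.0% of all 32851 windows of that length. GTGGGAA was found in 1 of the 11, and in 5.42% of all windows. Capitals mark the motifs, each sequence runs 5′ to 3′ toward the start, and the strand is that of the gene.
Dll1, chr17:15376933-15377182, minus strand: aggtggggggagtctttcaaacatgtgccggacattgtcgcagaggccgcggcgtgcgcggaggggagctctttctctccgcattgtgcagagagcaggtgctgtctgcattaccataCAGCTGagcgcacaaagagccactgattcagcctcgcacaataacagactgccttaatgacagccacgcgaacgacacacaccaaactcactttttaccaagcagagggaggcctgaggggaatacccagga
Dll3, chr7:28301786-28302035, minus strand: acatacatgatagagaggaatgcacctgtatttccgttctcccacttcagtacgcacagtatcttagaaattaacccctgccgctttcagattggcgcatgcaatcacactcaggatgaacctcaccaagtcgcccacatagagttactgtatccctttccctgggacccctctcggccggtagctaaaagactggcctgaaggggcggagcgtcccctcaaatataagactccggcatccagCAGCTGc
Jag1, chr2:137116521-137116770, minus strand: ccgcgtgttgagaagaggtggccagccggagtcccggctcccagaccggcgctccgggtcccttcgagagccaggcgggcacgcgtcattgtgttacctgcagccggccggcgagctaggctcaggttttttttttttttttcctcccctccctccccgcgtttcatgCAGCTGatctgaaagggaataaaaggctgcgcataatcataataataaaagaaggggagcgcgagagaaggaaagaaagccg
Lfng, chr5:140607091-140607340, plus strand: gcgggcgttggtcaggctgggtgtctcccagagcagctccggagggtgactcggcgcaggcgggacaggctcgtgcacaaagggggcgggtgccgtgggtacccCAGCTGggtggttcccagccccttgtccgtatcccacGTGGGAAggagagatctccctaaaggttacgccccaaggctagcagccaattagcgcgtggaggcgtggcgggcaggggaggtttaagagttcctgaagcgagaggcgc
The E-box begins 132 bases before the start in Dll1, 7 in Dll3, 82 in Jag1 and 146 in Lfng, where GTGGGAA begins 109 bases before it. Dll1 has a further start with a window that holds neither motif. Of the 4 genes with the E-box, Dll1, Dll3 and Lfng fell in quiescence and Jag1 rose, and a match of letters is a description and not a bound site.

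Lfng and Mfng were both lower in quiescence. Lfng (ENSMUSG00000029570, chromosome 5, 140593075 to 140601300, plus strand), which encodes the fringe enzyme of neural stem cells, had the highest level per length of the 10 genes in every library. It was at 383, 351, 355 and 372 CPM in quiescent and at 555, 539.8, 586 and 548 CPM in proliferating cells. The groups were clear of each other, and Lfng fell 1.53-fold (log2 fold change -0.61, SE 0.04, adjusted p = 4.20e-09). With GFP it was at 236, 255 and 254 CPM and with Cre-GFP at 227, 233 and 246 CPM. These overlapped, and the difference of -0.08 (SE 0.05) did not pass (adjusted p = 0.219), although it passed without Yme1l KO replicate 3 (-0.11, adjusted p = 0.0165). That fit also gave Notch3 a smaller p-value from fewer libraries, so the Lfng call adds no separate support. The coding transcript Lfng-201 held 59.9% to 66.5% of the gene's TPM in the 4 groups, and the retained-intron transcript Lfng-202 held 23.7% to 28.5%.

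Mfng (ENSMUSG00000018169, chromosome 15, 78640082 to 78657675, minus strand), a second fringe enzyme, had few counts in 3 of the 4 groups. There were 2, 3, 3 and 1 counts in the quiescent libraries against 92, 66, 65 and 61 counts in the proliferating ones. In this table the gene met the filter on low counts only through the proliferating libraries, where it was high. The quiescent group held 9 counts against 284, 24.3-fold lower relative to library size (exact 95% interval 12.6 to 53.6, counting error only). The fitted log2 fold change was -4.53 (SE 0.32, adjusted p = 4.33e-09). That SE was derived from the F statistic and is narrower than the exact interval, so it understates the counting error. In the second table Mfng had 11, 4 and 12 counts with GFP and 1, 2 and 1 counts with Cre-GFP. That is 4 counts against 27, 6.28-fold lower (exact 95% interval 2.19 to 24.7, counting error only). The gene fell below the filter on low counts there. With no filter it was tested and lower (log2 fold change -2.54, adjusted p = 0.00291). It was also lower in the 5 other alternatives that kept it, at -2.91 to -2.38 with adjusted p from 0.00169 to 0.0235. These fits reuse the same few counts, and a count filter could keep the gene only through libraries where it was high. They add no separate support.

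Rbpj (ENSMUSG00000039191, chromosome 5, 53623494 to 53814704, plus strand), the DNA-binding partner shared by the Notch receptors, was at 8.41, 20.7, 14.2 and 16.0 CPM in quiescent and at 16.1, 15.2, 12.6 and 13.9 CPM in proliferating cells. The quiescent values spread on both sides of the proliferating ones, and the difference of 0.05 (SE 0.22) did not pass (adjusted p = 0.845). Its sign changed without quiescent replicate 2, to -0.08. With GFP it was at 89.5, 89.3 and 84.7 CPM and with Cre-GFP at 84.1, 78.7 and 82.7 CPM. These did not overlap, but the difference of -0.10 (SE 0.06) did not pass (adjusted p = 0.145). Rbpj has the lowest transcript GC content of the 10 genes, 43.2%, and the coding transcripts assigned its reads varied from library to library, with Rbpj-202 at 0% to 79.6% of its TPM among the quiescent libraries.

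Maml1 (ENSMUSG00000050567, chromosome 11, 50146461 to 50183138, minus strand), a Mastermind coactivator that brings the acetyltransferase p300 to the receptor complex, was lower in quiescence. It was at 34.8, 29.7, 32.5 and 28.05 CPM against 48.2, 55.9, 54.4 and 52.5 CPM in proliferating cells. The groups did not overlap, and Maml1 fell by 0.76 on the log2 scale (SE 0.08, adjusted p = 5.35e-07). With Cre-GFP it was at 38.3, 38.1 and 35.9 CPM against 39.1, 43.1 and 46.7 CPM with GFP. All 3 Yme1l KO libraries were below the controls, by a small margin, and the difference of -0.20 (SE 0.08) lay at the threshold (adjusted p = 0.0510). It passed in 4 alternatives, with adjusted p from 0.0178 to 0.0483, among them leaving out GFP control replicate 1 (adjusted p = 0.0241).

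Groups without overlap were counted for 8 of the 10 genes in quiescent against proliferating cells, where 59.7% of all genes had none, and for 5 of the 9 tested in Yme1l KO against GFP control, where 61.4% had none. The authors' deposited table gives adjusted p under 0.05 for 9 of the 10 genes in the first comparison and for 3 in the second. It holds no adjusted p for Mfng in the second. Its share over all genes was not counted, and in the tests made here 65.4% and 51.6% of all genes passed. It rests on the same libraries, so these counts add no separate support.

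**Figure D3:**
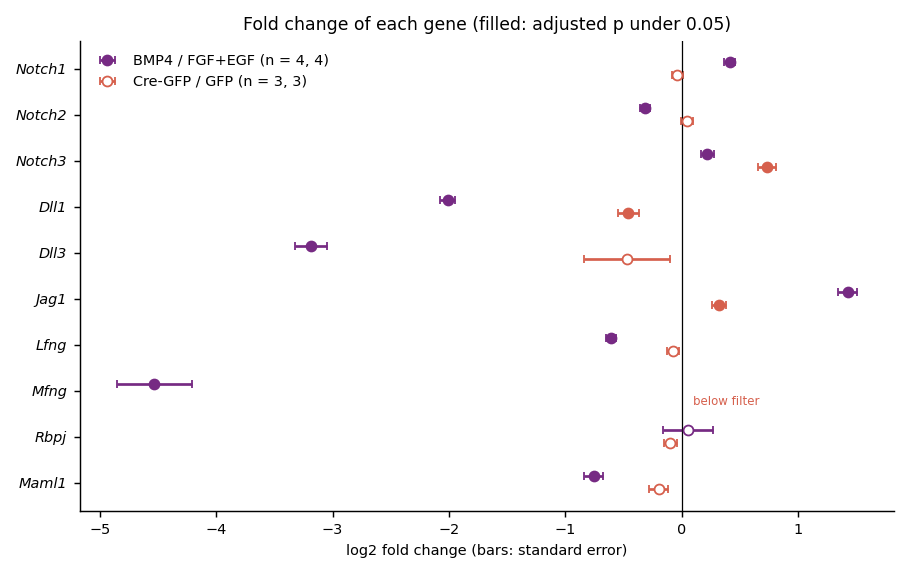
Log2 fold change of each gene with its standard error as bars, for BMP4 against FGF and EGF (purple, n = 4 and 4) and Cre-GFP against GFP virus (red, n = 3 and 3); filled points passed the test at an adjusted p under 0.05. Dll1, Dll3 and Mfng lie farthest left in the first comparison, at -2.01, -3.19 and -4.53, and Mfng was below the count filter in the second. Standard errors were derived from the F statistic and are too small where counts are few, as for Mfng.

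Whether the response to Cre-GFP differed from the response to BMP4 was tested as the difference between both log2 fold changes, in 1 fit of all 14 libraries. It passed for 8 of the 10 genes, against 38.9% of 13580 genes tested. The split of all calls there, 2848 higher and 2441 lower, was 2229 and 3094 with RLE size factors and 4173 and 1732 with library size alone. Notch3 was the gene with a larger rise after Cre-GFP than in quiescence, by 0.46 (SE 0.10, adjusted p = 0.00143).

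Jag1 rose less after Cre-GFP, with a difference of -1.16 (SE 0.11, adjusted p = 2.65e-08). The difference was 1.503 for Dll1 (SE 0.12, adjusted p = 2.11e-09) and 2.67 for Dll3 (SE 0.39, adjusted p = 1.48e-05), whose own value after Cre-GFP did not pass. Notch1 differed by -0.50, Notch2 by 0.31, Lfng by 0.48 and Maml1 by 0.51, all passing. Rbpj, with a difference of -0.21 (SE 0.22, adjusted p = 0.463), and Mfng, with 1.96 (SE 0.98, adjusted p = 0.121), did not pass.

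Ordered by TPM, Lfng stood first in every group (mean 389 TPM in quiescent, 589 in proliferating, 263 in GFP control and 247 in Yme1l KO cells) and Notch1 second (134, 99.6, 45.2 and 44.8 TPM). In proliferating cells Dll1 (75.2 TPM) and Notch3 (64.4 TPM) followed, with ranges that overlap, then Notch2 (45.6), Dll3 (23.0), Maml1 (17.5), and Jag1 (8.27), Mfng (7.73) and Rbpj (7.02), which overlap one another. In quiescent cells the order after Notch1 was Notch3 (74.5), Notch2 (36.9), Jag1 (21.6) and Dll1 (17.2), the last pair overlapping, then Maml1 (10.3), Rbpj (5.77) and Dll3 (2.45), Rbpj and Dll3 overlapping, and Mfng (0.325). In GFP control cells Jag1 (32.1) and Rbpj (31.4) overlapped, followed by Notch2 (23.6), Notch3 (20.7), and Dll1 (15.8) and Maml1 (15.1), which overlapped. In Yme1l KO cells Jag1 (40.4) overlapped Notch3 (34.6), which overlapped Rbpj (30.5), and Notch2 (24.2), Maml1 (13.1) and Dll1 (11.996) followed. Dll3 and Mfng came last in both groups of the second table, at 1.38 and 0.939 TPM with GFP and 1.01 and 0.152 TPM with Cre-GFP. Their ranges overlapped with GFP.

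The genes whose levels followed each member most closely were sought among 8930 genes, by the root mean square difference of log2(CPM + 1) over the 14 libraries after centring each table on its own mean. Notch3 was closest to Grn (0.04), which encodes the lysosomal growth factor progranulin, and to Bckdha (0.05), a subunit of the enzyme that breaks down branched-chain amino acids. Grn rose by 0.26 in quiescence and 0.72 in the Yme1l KO. Jag1 was closest to Agpat5 (0.08) and Wwtr1 (0.09), which encodes the Hippo effector TAZ. Dll1 was closest to Fbln2 (0.10) and to the mitotic gene Gtse1 (0.11). Dll3 was closest to Myc (0.24) and Mmp17 (0.25), which are farther from it than the neighbours of the other genes. Notch1 was nearest to Ldha and Phc2, Notch2 to Prrc2b and Cby1, Lfng to Exosc4 and Map7d1, Mfng to B4galnt4 and Lmo3, Rbpj to Scaf8 and Ptpn12, and Maml1 to Slc7a6os and Tarbp2. The members and their neighbours share the libraries, so the likeness is a description.

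A further 73 genes of the pathway were read in 7 lists. In quiescent cells 67 were tested, 26 rose and 16 fell, beside the 65.4% of all genes that passed. With library size alone 14 were called higher and 21 lower. In the Yme1l KO 65 were tested, 25 rose and 15 fell, beside 51.6% of all genes, and with library size alone the counts were 19 and 18.

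The genes that switch on below the receptors did not move together. Of 8 listed targets 6 were tested in quiescence, 3 rose and 3 fell. Their median of 0.80 (all genes -0.01) lies in a gap between -0.56 and 2.16 and describes no gene. Hey1, a repressor tied to stem cell quiescence, rose from 55.8 ± 1.37 to 306 ± 13.8 CPM (SD, n = 4; log2 fold change 2.45). Gfap, the astrocyte filament gene, rose by 2.78 and the co-receptor gene Nrp1 by 2.16. Hes1 and Hes5, the classical Notch-induced repressors, fell by 0.62 and 0.56, from 32.6 ± 5.41 to 21.2 ± 1.92 CPM and from 14.9 ± 1.45 to 10.1 ± 0.880 CPM (SD, n = 4). Nrarp, a feedback inhibitor induced by Notch, fell by 2.01.

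In the Yme1l KO, 2 of 6 tested targets rose and 2 fell (median 0.18, all genes 0.00). Hes5 fell from 2.71 ± 0.642 to 0.434 ± 0.0958 CPM (SD, n = 3; log2 fold change -2.61, adjusted p = 5.83e-05), which is 81 counts against 12. It met the filter on low counts only through the GFP control libraries. Hey1 fell by 0.41 (adjusted p = 0.0176). Nrarp rose by 0.61 and Nrp1 by 0.49, while Hes1 at 0.05 and Gfap at 0.31 did not pass. Without Yme1l KO replicate 3, 2 targets rose and 1 fell. Hey2 and Heyl were below the filter in both comparisons. Of 5 astrocyte markers, Gfap among them, 3 rose and 1 fell in quiescence, and 2 rose in the Yme1l KO. Their summed level was 1353 to 1542 CPM in quiescent and 1619 to 1680.4 CPM in proliferating cells. Most of it was Aldh1l1, the marker that fell, at 906 to 1081 and 1551 to 1607 CPM. Gfap was at 291 to 323 and 38.8 to 55.6 CPM, and S100b at 132 to 145 and 21.9 to 25.8 CPM. The sum was 116 to 123 CPM with GFP and 166 to 171 CPM with Cre-GFP. None of the 5 markers was at 0 throughout a group. Their part in the target values was not tested.

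Proneural factors and antagonists also went both ways. In quiescence Id4, an inhibitor of proneural factors, rose by 3.29, while Btg2, Insm1 and Hes6 fell by 2.94, 1.35 and 0.26. After Cre-GFP, Btg2 and Insm1 rose by 0.74 and 0.75, with Id4 at 0.30 and Hes6 at 0.12 not passing. Neurog2 and Neurod1 were below the filter in both comparisons.

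Of 10 genes for the proteases and secretase subunits that cut the receptor, 8 rose and 0 fell in quiescence (median 0.60), and 6 rose and 0 fell in the Yme1l KO (median 0.21). All 10 values lay above 0 in quiescence. Of all genes tested, 29.9% were called higher in quiescence and 25.4% in the Yme1l KO. In quiescence the largest rises were those of Adam10 (1.43, SE 0.27, adjusted p = 0.00281), Psen2 (1.12) and Adam17 (0.77). Psen2 encodes a catalytic subunit of gamma-secretase. In the Yme1l KO the largest rises were those of Aph1c (0.99), Psen2 (0.74) and Furin (0.48). Adam10 at 0.05 did not pass there (adjusted p = 0.413). With library size alone 5 were called higher and 1 lower in quiescence. The counts were 9 higher and 0 lower without quiescent replicate 2, and 5 higher and 0 lower without Yme1l KO replicate 3.

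Among 6 other receptors and ligands, Dner, a non-canonical ligand of glia and neurons, rose from 154 ± 8.32 to 845 ± 13.1 CPM (SD, n = 4; log2 fold change 2.46) in quiescence and by 0.42 in the Yme1l KO. Dlk2 rose by 3.81 in quiescence, Dll4 fell by 0.62 (adjusted p = 0.0455), and Notch4 and Dlk1, at 0.66 and 0.67, did not pass. Dlk2, with 200 counts against 18, met the filter on low counts only through the quiescent libraries. This list had no lower call, and so none for Dll4, in 15 of 19 alternatives, DESeq2, limma and the replicate block among them. It had 4 higher and 0 lower without quiescent replicate 2. Jag2 was below the filter in both comparisons, as were Dll4 and Dlk2 in the Yme1l comparison. Notch4 at 0.30 and Dlk1 at -0.49 did not pass there, and leaving out GFP control replicate 2 added 1 lower call.

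Of 6 other genes for receptor glycosylation, Pofut1, which adds the fucose that fringe enzymes extend, fell by 0.21 in quiescence (adjusted p = 0.00486), while Poglut1 (-0.08), Rfng (0.07), Xxylt1 (0.01), Gxylt1 (0.17) and Gxylt2 (0.21) did not pass. No gene of this list passed without quiescent replicate 3 or without quiescent replicate 4, and without quiescent replicate 2 it had 1 higher and 0 lower. After Cre-GFP Gxylt1 fell by 0.30 (adjusted p = 0.00251) and Gxylt2 rose by 0.63 (adjusted p = 0.0481). Pofut1 (-0.14), Poglut1 (0.07), Rfng (0.18) and Xxylt1 (0.03) did not pass. The list kept 1 call, a lower one, without any 1 of GFP control replicates 1, 2 and 3 or Yme1l KO replicates 2 and 3.

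Of 17 genes for ligand endocytosis and receptor turnover, 7 rose and 4 fell in quiescence. With library size alone 3 were called higher and 6 lower, and without proliferating replicate 2 or 5 the counts were 4 and 4. The falls were led by Neurl1b and Neurl1a, ubiquitin ligases for Notch ligands, at -2.36 and -2.32, and by the endocytic adaptor Epn2 at -0.85. The rises were led by Fbxw7, the ligase that marks the receptor's intracellular domain for destruction, at 1.73, Dtx1 at 0.93 and Mib1 at 0.86. In the Yme1l KO 6 rose and 5 fell, with Dtx3 (0.60), Fbxw7 (0.57) and Mib2 (0.43) at one end and Neurl1b (-1.19), Neurl1a (-0.28) and Dtx4 (-0.26) at the other.

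Of 18 tested nuclear cofactors, 4 rose and 4 fell in quiescence. The acetyltransferase gene Kat2a fell from 125 ± 4.25 to 54.0 ± 3.56 CPM (SD, n = 4; log2 fold change -1.21) and the corepressor gene Ctbp1 by 0.30, while Maml3 rose by 0.57, Kat2b by 0.48 and Crebbp by 0.33. This list had 1 higher and 4 lower without any 1 of proliferating replicates 2, 4 and 5, and 0 higher and 5 lower with library size alone. In the Yme1l KO 7 rose and 6 fell, led by Maml3 (0.87), Kat2b (0.50) and Cir1 (0.46) and by Kat2a (-0.81) and Ctbp1 (-0.38).

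**Figure D4:**
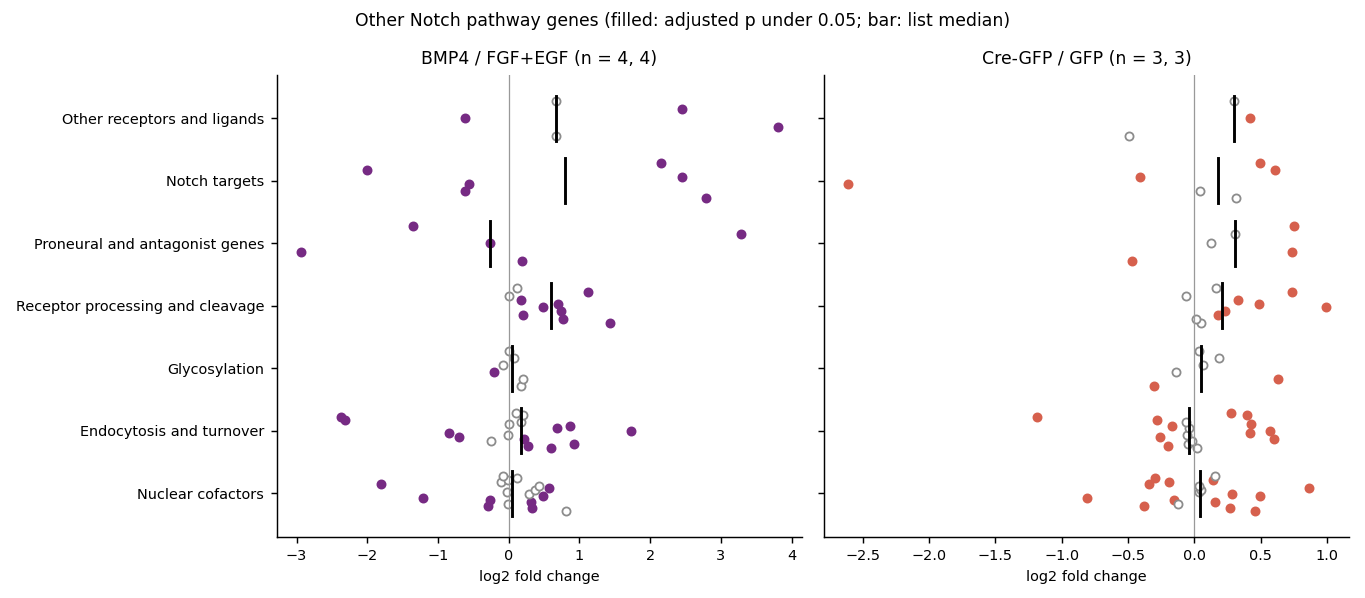
Log2 fold change of every tested gene of the 7 other Notch pathway lists for BMP4 against FGF and EGF (left) and Cre-GFP against GFP virus (right); filled points passed at an adjusted p under 0.05 and black bars are list medians. In receptor processing and cleavage no filled point lies left of 0 in either panel, with 8 filled points on the left panel and 6 on the right.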

How the data were processed

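Members and gene lists were chosen with earlier results of these data known. The authors deposited estimated counts per gene made with salmon, TPM values and a test table with log2 fold changes and adjusted p-values. The submitters' processing notes name GRCm39 and DESeq2 1.30.1 in R 4.0.3. The aligner settings are not given in the sources used here. Columns named with a replicate other than the sample title were matched through the read identifiers in the deposited design table.

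Counts were rounded and tested in edgeR 4.0.16 (R 4.3.3) using TMM, filterByExpr and robust quasi-likelihood tests, with Benjamini-Hochberg adjustment over all genes tested. Standard errors were derived from the F statistic and the log2 fold change. They can fall below the counting error where counts are few, as for Mfng in quiescence. Log2 fold changes from the authors' deposited table were only counted. TPM values, as deposited, served comparisons between genes, CPM comparisons between libraries. Ratios of low counts carry exact 95% intervals, and the reads carry no molecular identifiers, so these cover counting error only. GC content came by gene identifier from GENCODE M21 transcripts, promoters from RefSeq GRCm38.p6. The test was checked on simulated counts.

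All 10 members are described. From lists of 8 or fewer genes tested members are named, and from longer lists up to 3 per direction by size of fold change. A few list genes that the counts include are not reported here. Alternatives were RLE size factors, library size alone, DESeq2 1.42.0, limma 3.58.1 on log2(TPM + 1), length-scaled counts, 2 other filters, all 14 libraries in one fit, a replicate block and leaving out each library. TPM-scaled counts and removal of each library's GC trend were added after seeing the data.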

Additional observations from a re-analysis of the deposited data

Results flagged for a closer look

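Jag1 in quiescent replicate 2 lay at 80.9 CPM, and the other 3 quiescent libraries lay between 63.7 and 66.6 CPM. The gap to its nearest replicate was 0.833 of the group's range. Quiescent replicate 2 also held the highest Rbpj level of its group, 20.7 CPM, and the highest Yme1l1 level, 11.1 CPM against 3.91 to 4.88 CPM.

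Mfng in proliferating replicate 1 lay at 9.70 CPM (92 counts), and the other 3 proliferating libraries lay between 7.001 and 7.29 CPM. The gap was 0.894 of the range. Chance alone puts about 1 in 20 groups past the limit used.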

How the results depend on the processing

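In quiescent against proliferating cells, 9 genes passed in each alternative except library size alone, where 8 did, and in the Yme1l KO 3 to 6 did. The count in the Yme1l KO was 5 with no filter on low counts and 6 with the GC trend removed, and leaving out 1 library at a time gave 3 to 6, with 6 without Yme1l KO replicate 3. The fit without that replicate gave Notch3 a smaller p-value from fewer libraries, so its further calls add no separate support. The difference between both effects passed for 8 or 9 genes. Rbpj in quiescence was lower with library size alone (-0.083), limma (-0.29), the replicate block (-0.012), TPM-scaled counts (-0.25) and the GC trend removed (-0.18), and without quiescent replicate 2 (-0.076) or proliferating replicate 4 (-0.013), and leaving out 1 library at a time gave -0.076 to 0.29. Its difference between effects was 0.25 with limma, 0.15 with TPM-scaled counts and 0.10 with the GC trend removed, and it passed without quiescent replicate 1 (-0.39, adjusted p = 0.0360). Notch2 in the Yme1l KO was -0.034 with the GC trend removed. The cause of these changes was not tested. Library size alone moved the median of all genes in quiescence to -0.15. With the GC trend removed, Notch1 (-0.13, adjusted p = 0.0262), Lfng (-0.19) and Maml1 (-0.25) also passed in the Yme1l KO. Turnover genes in the Yme1l KO gave 7 calls with limma and 5 with TPM-scaled counts, and nuclear cofactors 6 and 5. The labels do not say whether replicate numbers pair the samples, and 3 pairs in each table cannot decide it. Deviations of same-numbered libraries correlated at -0.35 to -0.01 in the first table and at -0.05 to 0.00 in the second. Those of differently numbered libraries in the first table correlated at -0.37 to 0.51. With the replicate block 9 and 3 genes passed. In quiescence processing genes then gave 5 calls, all higher, and nuclear cofactors 3, all lower. Length-scaled counts equalled the plain counts within rounding. Depth limits Dll3 and Mfng in the second table, where no library held more than 25 or 12 counts.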
